A study of Homo sapiens with 6 samples.

Results

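Cadherins and the proteins of desmosomes and tight junctions were examined as a set of 10 genes in RNA-seq of K562 cells, a human erythroleukemia line. The members were the table rows whose symbol was CDH1, CDH2, CTNNB1, CTNND1, DSP, JUP, PKP2, PKP3, EPCAM or TJP1. Each symbol had 1 row, so the set held 10 of the 57150 genes listed. The samples were 3 pools of K562 cells transfected with siRNAs that target αCP1 and αCP2 together, and 3 pools transfected with control siRNAs, all collected 72 h later. The cells of both groups were the same line and both received siRNA. Distinct co-depletion siRNAs were used among the KD pools, but the paper gives the same siRNA for some of them. Its control siRNAs were a non-targeting siRNA and siRNAs against an unrelated mRNA, so some control pools also had a gene targeted. By its methods, some pools came from an earlier study and others were added. A batch difference between these was not tested. The table gives 1 FPKM value (fragments scaled by transcript length and by library size) and 1 estimated count per gene for each group, in columns labelled KD and CTRL. The 3 libraries of a group are not separated in it, so the spread between pools is not known and no difference has a replicate check here. Columns of a comparison by the authors (a fold change, a p-value and an FDR) are also given and were left unused. Statistical testing of the differences was not attempted.

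Cadherins are calcium-dependent adhesion molecules that bind the same cadherin on the neighbouring cell. Inside the cell, classical cadherins hold p120-catenin (CTNND1) and β-catenin (CTNNB1) or its paralog plakoglobin (JUP), which link them through α-catenin to actin. Desmosomes use desmosomal cadherins in their place, joined by plakoglobin and plakophilins (PKP2, PKP3) to desmoplakin (DSP), which anchors keratin or other intermediate filaments. Tight junctions seal epithelial sheets, and ZO-1 (TJP1) is a scaffold of these. EPCAM is an epithelial adhesion molecule that is not a cadherin. Blood cells as a rule have no desmosomes or tight junctions. Several of these genes are known targets of repressors of the SNAI and ZEB families, which bind E-boxes of the form CAGGTG.

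The E-box is shown here in the starts of the members for which RefSeq promoter windows were at hand. Windows of 250 bases before a transcription start (RefSeq, GRCh38.p14) matched 5 of the 10 members, CDH2, CTNNB1, DSP, JUP and TJP1, with 10 windows in all. CDH1, CTNND1, EPCAM, PKP2 and PKP3 had no window. CAGGTG was searched on both strands, which means CAGGTG or CACCTG in the printed strand, and the 2 forms cannot overlap. It was present in 3 of the 10 windows, of DSP, JUP and TJP1, and in 17.5% of all 35116 windows. The windows below lie at chr6:7541421-7541670 (plus strand) for DSP, chr17:41785977-41786226 (minus strand) for the second JUP start, chr15:29969050-29969299 (minus strand) for the first TJP1 start, and chr3:41199255-41199504 (plus strand) for CTNNB1. They are written 5′ to 3′ with the E-box in capitals, and CTNNB1, the paralog of JUP, is shown as a window without the motif. The first JUP start, the other TJP1 starts and both CDH2 starts also lacked it, so JUP and CTNNB1 each have a start without the motif. Member windows with the motif were 66% to 78% GC, against a median of 58% over all windows. Member windows without it ranged from 34.8% at the fourth TJP1 start to 74.4% at CTNNB1, so the GC ranges overlapped.
DSP: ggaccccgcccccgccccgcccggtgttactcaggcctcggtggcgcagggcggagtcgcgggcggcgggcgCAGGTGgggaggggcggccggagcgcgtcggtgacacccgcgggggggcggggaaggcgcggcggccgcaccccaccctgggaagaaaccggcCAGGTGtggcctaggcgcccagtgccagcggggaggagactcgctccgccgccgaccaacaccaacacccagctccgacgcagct
JUP: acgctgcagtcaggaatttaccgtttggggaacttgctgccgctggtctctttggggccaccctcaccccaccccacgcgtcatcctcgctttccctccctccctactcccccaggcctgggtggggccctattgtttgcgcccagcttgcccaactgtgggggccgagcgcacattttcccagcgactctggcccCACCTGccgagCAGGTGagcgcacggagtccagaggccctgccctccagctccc
TJP1: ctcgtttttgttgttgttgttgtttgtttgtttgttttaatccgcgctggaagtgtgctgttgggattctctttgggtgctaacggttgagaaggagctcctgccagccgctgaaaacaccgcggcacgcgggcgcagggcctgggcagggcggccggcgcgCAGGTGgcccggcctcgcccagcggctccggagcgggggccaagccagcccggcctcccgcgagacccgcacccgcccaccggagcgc
CTNNB1: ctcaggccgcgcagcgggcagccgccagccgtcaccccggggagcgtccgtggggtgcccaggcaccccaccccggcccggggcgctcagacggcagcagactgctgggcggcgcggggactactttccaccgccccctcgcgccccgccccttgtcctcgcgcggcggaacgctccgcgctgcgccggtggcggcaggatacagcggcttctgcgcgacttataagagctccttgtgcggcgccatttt
In DSP the motifs began 178 and 85 bases before the start, in JUP 54 and 43 bases before it, and in TJP1 88 bases before it. A match describes these letters only, and no binding was measured here. Of the repressors of these families, named after their values were seen, ZEB1 had an FPKM of 4.01 where KD was labelled and 5.66 where CTRL was, SNAI2 had 3.41 and 4.17, SNAI1 had 2.01 and 2.75, and ZEB2 had 0.670 and 0.560.

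The column labels and the cell line were checked first. PCBP1, which encodes αCP1, had an FPKM of 184.1 in the KD-labelled column and 187.8 in the CTRL-labelled column, and PCBP2, which encodes αCP2, had 530.8 and 342.4. The log2 ratio of KD over CTRL for PCBP1 was -0.03 by FPKM and -0.25 by count shares (-0.32 to -0.19), and for PCBP2 it was 0.63 and 0.37 (0.32 to 0.42). The paper reports the depletion at the level of mRNA as well as protein. In these columns PCBP2 mRNA was instead higher where depletion was labelled, and PCBP1 mRNA was nearly equal by FPKM. Whether the KD label describes the libraries behind its column was not tested, which bears on every ratio below. The columns go by their labels throughout. Of 20 genes that define K562 and other erythroid cells, 15 stayed under 1 FPKM in either column and 12 were listed at 0 in both, among them GATA1, TAL1 and KLF1. The exceptions with the highest FPKM were the embryonic globin gene HBE1, at 152.9 and 35.4, and GATA2, at 16.9 and 10.1, both named after their values were seen. The FPKM of this list summed to 179.0 in the KD-labelled column and 53.8 in the CTRL-labelled column. Of 10 epithelial genes outside the members, 5 had an FPKM of at least 5 in both columns, with sums of 4707 and 3347, while KRT5, KRT14, KRT19, ESRP1 and CDH3 were under 1. Of 8 mesenchymal genes, only VIM was at 5 or more in both, and the 4 endothelial genes found in the table, of 5 sought, were under 1. How far the kind of cell in the columns contributes to the levels below was not tested. In bulk RNA, fewer cells of a type and less RNA per cell cannot be told apart.

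The plaque genes among the 10 ranged from an FPKM of 5.20 for PKP2 in the CTRL-labelled column to 357.3 for JUP in the KD-labelled column. The former was above 33.2% of genes averaging 1 FPKM or more. E-cadherin mRNA was under an FPKM of 1. JUP was the highest of the 10 in both columns, CTNNB1 was the second, and EPCAM and CDH1 were the lowest. JUP had an FPKM of 357.3 in the KD-labelled column and 216.2 in the CTRL-labelled column, and only 386 and 526 of all genes listed were above it. CTNNB1 had 39.3 and 62.4, and CTNND1 had 30.4 and 40.7. These 3 genes encode the armadillo-repeat proteins that sit on cadherin tails. The other 3 desmosomal plaque genes were DSP at 27.3 and 23.5, PKP3 at 30.6 and 14.5, and PKP2 at 12.3 and 5.20. TJP1 had 12.2 and 13.4. CDH2, which encodes N-cadherin, had 10.3 and 10.8, near the middle of genes averaging 1 FPKM or more (above 48.6% and 50.5% of them).

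**Figure D1:**
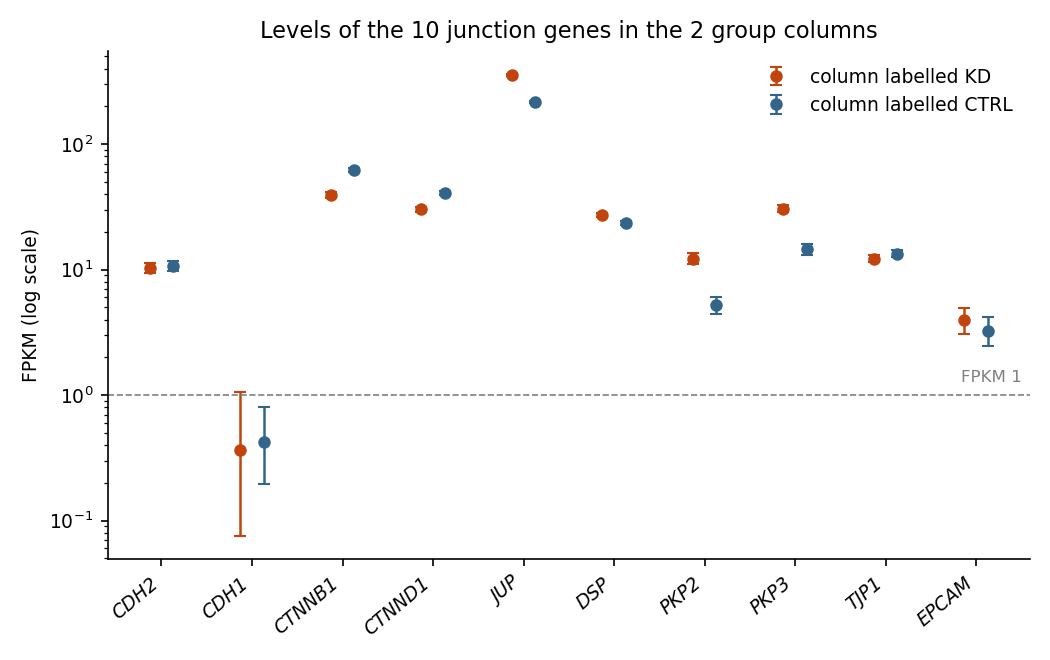
FPKM of the 10 junction genes (y axis, log scale) in the KD-labelled column (orange) and the CTRL-labelled column (blue), in order of role on the x axis. Bars are 95% exact Poisson intervals of the counts, which cover counting error only. JUP is at 216.2 or more in both columns and CDH1 is the only gene below the dashed line at an FPKM of 1.

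CDH1, which encodes E-cadherin, the classical cadherin of epithelia, had an FPKM of 0.363 in the KD-labelled column and 0.426 in the CTRL-labelled column. These values rest on 3 and 9 counts. The 95% counting interval was 0.0749 to 1.06 for the former and 0.195 to 0.809 for the latter. EPCAM, often used as a marker of epithelial cells, had 3.94 and 3.26 from 70 and 59 counts. The member with the next higher level was PKP2 in the CTRL-labelled column and CDH2 in the KD-labelled column. CDH2 exceeded CDH1 in both columns, by a ratio of FPKM values of 28.5 for KD and 25.2 for CTRL and by a ratio of counts of 163.7 and 55.7. With 3 counts of CDH1 for KD these ratios are poorly determined, and the counting interval of the difference between the columns ran from 0.727-fold to 17.0-fold.

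The order of the members differed between the columns in its middle part. In the KD-labelled column it was JUP, CTNNB1, PKP3, CTNND1, DSP, PKP2, TJP1, CDH2, EPCAM and CDH1. In the CTRL-labelled column it was JUP, CTNNB1, CTNND1, DSP, PKP3, TJP1, CDH2, PKP2, EPCAM and CDH1. The plakophilins PKP3 and PKP2 each stood 2 places lower in the second order. Neighbours whose counting intervals overlapped were PKP3 with CTNND1 and PKP2 with TJP1 in the KD-labelled column, and PKP3 with TJP1 in the CTRL-labelled column. The counting intervals of the other 7 and 8 of the 9 neighbouring pairs did not overlap, which says nothing of the spread between pools.

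Ratios between the columns put KD over CTRL, as log2 with 1 added to each FPKM, a scale that shrinks differences of low genes. They are given where FPKM averaged 1 or more, a filter that 9 of the 10 members and 13741 of all genes passed. CDH1 did not pass. Of the 9 members, 5 had a ratio above 0 and 4 below it, and 2 were at 1 or more, where 8.51% of all genes were. None was at -1 or less, where 3.27% of all genes were. The median of the 9 was 0.21, against 0.01 over all genes, whose quartiles were -0.34 and 0.45. The members' median was -0.05 by CPM and 0.08 with no filter or with the filter at 5, so its sign depends on the scaling. The 2 members past 1 were both plakophilins. Over all genes 1169 were past 1 and 450 past -1. That split was 641 and 803 by CPM (counts scaled by the column total), under which the all-gene median was -0.18, and 725 and 454 with the GC and length trend removed.

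PKP2, a plakophilin of the desmosomal plaque that is well known from heart muscle, had 405 counts in the KD-labelled column and 171 in the CTRL-labelled column. Its FPKM of 12.3 and 5.20 gave a log2 ratio of 1.10, a 2.36-fold higher FPKM. As a ratio of count shares, each count divided by its column's total, the fold was 2.02, with a 95% exact binomial interval of 1.68 to 2.43 that covers counting error only. PKP2 was thus higher in the KD-labelled column than counting error allows for. The value was 1.19 with a trend in GC and transcript length, described below, removed and 0.97 by CPM.

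PKP3, a plakophilin of most epithelia, had 982 and 389 counts. Its FPKM of 30.6 and 14.5 gave a log2 ratio of 1.03, a 2.11-fold higher FPKM in the KD-labelled column. The fold of count shares was 2.15, from 1.91 to 2.43. This difference also exceeded counting error, but its log2 ratio was 0.21 once the GC and length trend was taken out. PKP3 transcripts are 66.7% GC, the highest of the 10 members, and PKP2 transcripts are 46.5% GC. The ratio of PKP3 to PKP2 within a column was 2.49 by FPKM in the KD-labelled column and 2.78 in the CTRL-labelled column. By counts this ratio differed 1.07-fold between the columns, with a counting interval from 0.855 to 1.33. Their log2 ratios with the trend removed, 0.21 for PKP3 and 1.19 for PKP2, lay further apart, so whether their balance differed depends on the processing.

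The armadillo paralogs JUP and CTNNB1 differed in opposite directions by FPKM, by count shares and with the trend removed. JUP, which serves both desmosomes and adherens junctions, had 14276 and 8356 counts. Its log2 ratio was 0.72, a 1.65-fold higher FPKM in the KD-labelled column, and the log2 ratio of count shares was 0.54 (0.50 to 0.58). The FPKM ratio was 0.22 with the GC and length trend removed, and JUP transcripts are 61.5% GC. CTNNB1, which encodes β-catenin, the junction protein that also acts in Wnt signalling, had 1650 and 2534 counts. Its log2 ratio was -0.65, a 1.59-fold higher FPKM in the CTRL-labelled column, and the fold of count shares was 0.555 (0.521 to 0.591). It was -0.48 with the trend removed, at 43.5% GC. A total that scales a whole column cancels in the ratio of JUP to CTNNB1, while the GC trend does not. By FPKM it was 9.09 in the KD-labelled column and 3.47 in the CTRL-labelled column, and by counts it was 2.62-fold larger in the former, from 2.45 to 2.81. With the trend removed the log2 ratios of the 2 genes, 0.22 and -0.48, were closer together than the 0.72 and -0.65 of FPKM.

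CTNND1, whose product p120-catenin stabilises cadherins at the membrane, stood on the same side as CTNNB1. It had 1772 and 2344 counts and a log2 ratio of -0.41, and -0.15 with the trend removed. The fold of its count shares was 0.645 (0.606 to 0.686). Set against the cadherin they bind, CTNNB1 had a ratio to CDH2 of 3.80 by FPKM in the KD-labelled column and 5.80 in the CTRL-labelled column. For CTNND1 the ratio to CDH2 was 2.94 and 3.79. In counts both catenin ratios were lower in the KD-labelled column by more than counting error, at 0.664-fold (0.577 to 0.765) for CTNNB1 and 0.771-fold (0.670 to 0.889) for CTNND1.

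The remaining members had ratios close to 0. CDH2 had 491 and 501 counts and a log2 ratio of -0.05. TJP1 had 860 and 879 counts and a log2 ratio of -0.13. DSP, the linker from the plaque to intermediate filaments, had 2965 and 2622 counts and a log2 ratio of 0.21. The direction of all 3 depended on the scaling: by count shares the log2 ratio was -0.26 (-0.44 to -0.08) for CDH2, -0.26 (-0.40 to -0.12) for TJP1 and -0.05 (-0.13 to 0.02) for DSP, and with the trend removed it was 0.12, 0.06 and 0.35. Scaling by column totals (CPM) put the median of all genes that passed at -0.18, against 0.01 by FPKM. The counting intervals do not allow for this offset. EPCAM had a log2 ratio of 0.22, and its fold of count shares of 1.01 had an interval from 0.705 to 1.46. For CDH1 the fold of count shares was 0.284 with an interval from 0.0495 to 1.14, so no difference between the columns was detectable at 3 and 9 counts.

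**Figure D2:**
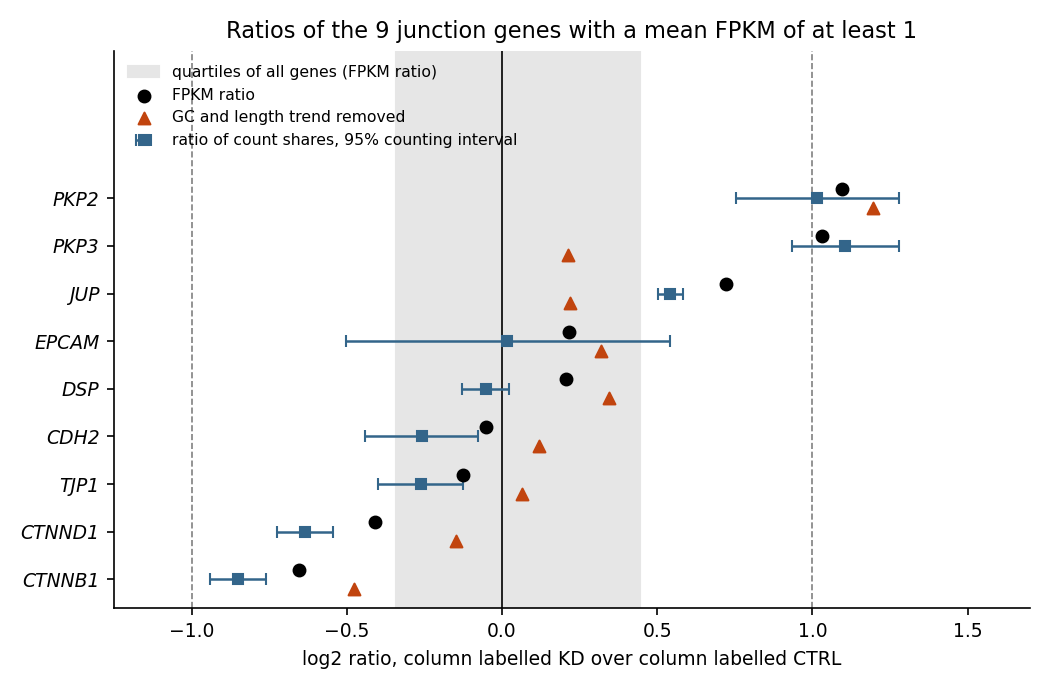
Log2 ratio of the KD-labelled column over the CTRL-labelled column (x axis) for the 9 members averaging 1 FPKM or more: from FPKM (circles), from count shares with the 95% counting interval (squares) and with the GC and length trend removed (triangles). The grey band spans the quartiles of the FPKM ratio over all genes, from -0.34 to 0.45, and the dashed lines mark -1 and 1. The quartiles of the other measures are not drawn. PKP2 is to the right of the band and CTNNB1 to the left of it by every measure. PKP3 and JUP move into the band with the trend removed.

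Desmoplakin gave a reference within the desmosome. Relative to DSP, PKP2 counts were 2.09-fold higher in the KD-labelled column (1.73 to 2.54), PKP3 counts 2.23-fold (1.96 to 2.55) and JUP counts 1.51-fold (1.42 to 1.60). By FPKM, PKP3 was 1.12 times DSP in the KD-labelled column and 0.615 times DSP in the CTRL-labelled column. By counts and by FPKM all 3 armadillo-repeat members of the plaque were thus higher relative to desmoplakin in the KD-labelled column. With the GC and length trend removed, PKP2 at 1.19 stayed above DSP at 0.35, while JUP at 0.22 and PKP3 at 0.21 were below it. DSP transcripts are 47.7% GC, below those of PKP3 and JUP and above those of PKP2.

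The log2 ratio of a gene moved with its GC content in this table, and this touches the members unequally. Across 13298 genes, which are not independent replicates, Spearman's rho between GC content and log2 ratio was 0.445. In 4 groups of genes of rising GC content the median log2 ratio was -0.24, -0.13, 0.09 and 0.47. JUP and PKP3 fell in the group with the highest GC content (55.8% to 74.7%). CTNND1, at 41.0% GC, was in the lowest group, and CDH2, CTNNB1, DSP, PKP2, EPCAM and TJP1 were in the second, from 41.8% to 47.9%. PKP2 thus had a log2 ratio of 1.10 among genes with a median of -0.13. What causes the trend was not tested.

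**Figure D3:**
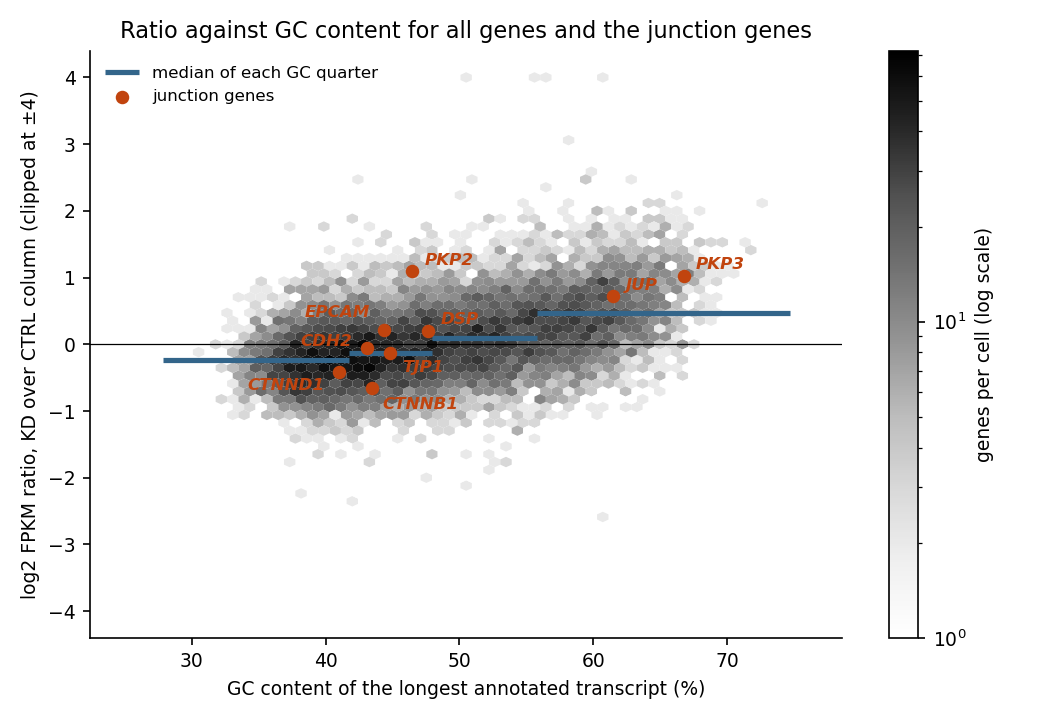
GC content of the longest annotated transcript (x axis, %) against the log2 FPKM ratio of the KD-labelled column over the CTRL-labelled column (y axis, clipped at 4 and -4). Grey cells are counts of genes, blue lines are the medians of 4 groups of equal size, and orange points are the 9 members. JUP and PKP3 lie at high GC content, where the median of all genes is 0.47, and PKP2 lies above its own group.

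Counts per FPKM reflect the transcript length that the authors' software assigned to a gene in each column. The log2 ratio of counts per FPKM, KD-labelled column over CTRL-labelled column, had quartiles of -0.04 and 0.06 over all genes that passed, and its 5th and 95th percentiles were -0.35 and 0.35. For 7 of the 9 members that passed it was between -0.04 and 0.05. It was 0.11 for TJP1 and 0.26 for PKP3, both above the upper quartile of 0.06 and below the 95th percentile of 0.35. CDH1, which did not pass, was at -1.36, and its FPKM and its counts therefore give different ratios.

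Related genes were grouped by role into 8 lists. Outside the members these held 118 genes, of which 60 passed the filter. Of the 60, 5 (8.33%) were higher by a log2 ratio of 1 or more in the KD-labelled column and 1 (1.67%) was lower, against the 8.51% and 3.27% of all genes given above. Their median was 0.06. These shares are close to those of all genes in the upward direction.

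Of 15 desmosome genes, members included, 10 passed, 3 were higher by 1 or more and none was lower, with a median log2 ratio of 0.59. The third gene beside PKP2 and PKP3 was EVPL, whose product envoplakin is a plakin of the epidermal envelope, at an FPKM of 8.13 and 3.29 and a log2 ratio of 1.09 (0.43 with the trend removed, at 65.2% GC). The desmosomal cadherins were limited to a few genes. DSG2, the desmoglein found in most desmosome-bearing tissues, had 18.2 and 18.2 and a log2 ratio of 0.00. DSC2 had 1.07 and 1.43, and DSC3 had 2.35 and 1.66. DSG1 and the plakophilin gene PKP1 were listed at 0 in both columns. DSG2, DSC2, DSC3 and, further on, CDH24 and OCLN were named after their values were seen. The median of the desmosome list was 0.43 by CPM and 0.29 with the trend removed. The number past 1 was then 2 in each case. With the trend removed these were PKP2 and PERP, a membrane protein of desmosomes named after its values were seen, which had an FPKM of 185.7 and 105.1, a log2 ratio of 0.81 and a trend-removed value of 1.04.

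Of 23 cadherins, 3 passed and none was past 1 in either direction. The highest was CDH13, a cadherin with a lipid anchor in place of a cytoplasmic tail, at 26.6 and 25.8 with a log2 ratio of 0.04. CDH2 followed, and CDH24 was the third. A further 10 cadherins were listed at 0 in both columns. Of 16 catenins and linkers, 13 passed and none was past 1 in either direction, with JUP the highest by mean FPKM. With the trend removed 1 was higher by 1 or more, CTNNA1, which encodes the α-catenin that joins β-catenin to actin and was named after its values were seen. It had 359.9 and 182.8 and a log2 ratio of 0.97, which was 0.12 by CPM.

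Of 34 tight-junction genes, 15 passed, 2 were higher and 1 was lower by 1 or more, and the median was -0.26. PARD6A and PARD6B, paralogous polarity adaptors, were on opposite sides: PARD6A had 10.3 and 3.63, a log2 ratio of 1.29, and PARD6B had 3.53 and 8.10, a log2 ratio of -1.01. With the trend removed these were 0.69 and -0.77. The second higher gene was CLDN15, at 7.76 and 1.96, which was named after its values were seen. The highest by mean FPKM was CLDN7, a claudin that binds EPCAM, at 79.5 and 40.6 with a log2 ratio of 0.95. For CLDN7 this was 0.36 by CPM and 0.52 with the trend removed. OCLN, which encodes the membrane protein occludin, was under 1 in both columns, at 0.580 and 0.770.

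In the remaining lists, CD44 was the highest of the EPCAM partners and relatives, at 433.2 and 314.6. Its direction depended on the scaling, with a log2 ratio of 0.46 by FPKM and -0.17 by count shares (-0.22 to -0.12). None of the 6 genes of that list that passed was past 1. Neither was any of the 4 epithelial regulators, with ELF3, an epithelial transcription factor, highest at 56.9 and 68.2, nor any of the 6 mesenchymal transition factors, with TWIST1 highest at 6.89 and 4.51. Of 14 genes for β-catenin turnover and partners, 2 were higher by 1 or more and none was lower. AXIN1, the scaffold of the complex that marks β-catenin for destruction, had 17.3 and 4.76, a log2 ratio of 1.67, and AXIN2, its Wnt-induced paralog, had 4.21 and 0.932, a log2 ratio of 1.43. They were 1.08 and 1.32 with the trend removed. CSNK1A1, a kinase of that complex, was the highest of the list at 43.2 and 50.4. AXIN2 was named after its values were seen.

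**Figure D4:**
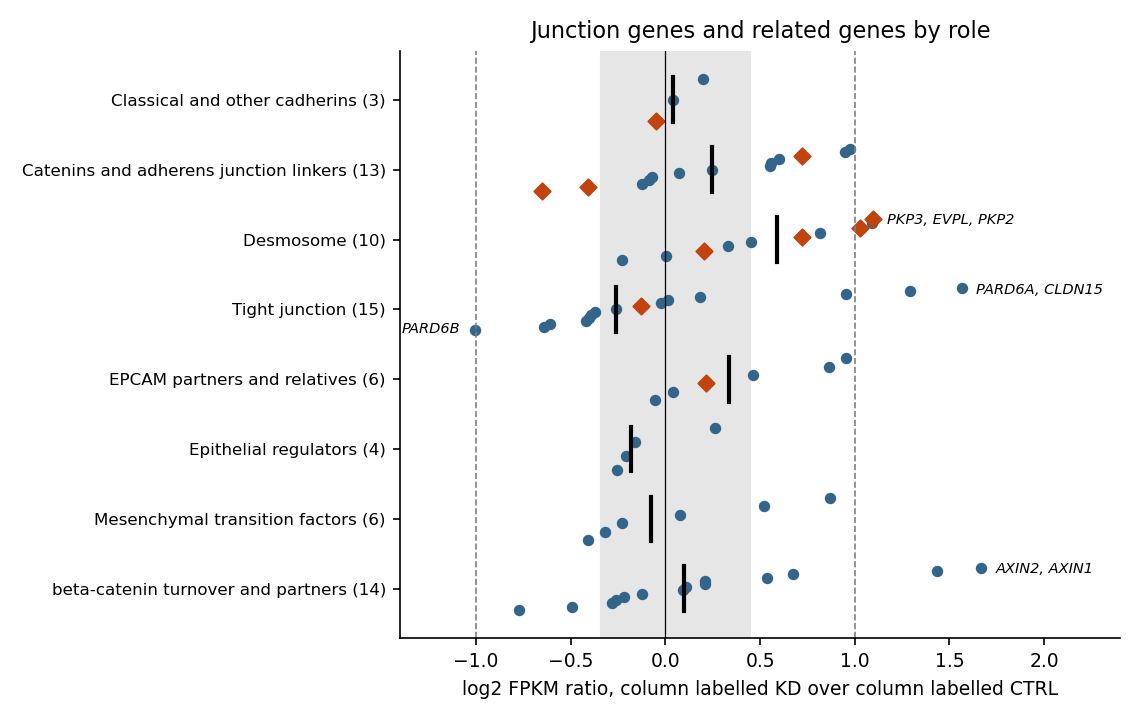
Log2 FPKM ratio of the KD-labelled column over the CTRL-labelled column (x axis) for genes averaging 1 FPKM or more in 8 lists by role (y axis, number of genes in parentheses). Diamonds are members, circles other genes, black bars list medians, the grey band the quartiles of all genes, and genes past 1 or -1 are named from left to right. JUP, CTNNB1 and CTNND1 lie on different sides of 0 within the catenin list, and the desmosome genes past 1 are PKP3, EVPL and PKP2.

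The members lie on separate chromosomes except CTNND1 and PKP3, which are both on 11, and all are protein coding in GENCODE release 44 on GRCh37, the build the authors' hg19 alignment corresponds to. JUP spans chr17:39910856-39943183 and CTNNB1 chr3:41236232-41301587. PKP2 spans chr12:32943679-33049732 and PKP3 chr11:392614-404908. CDH1 spans chr16:68771195-68869440, CDH2 chr18:25512843-25757910, CTNND1 chr11:57520715-57587018, DSP chr6:7541571-7586947, EPCAM chr2:47572297-47614740 and TJP1 chr15:29991571-30261118. The locus that the table gives is wider than the annotated gene for JUP (167495 against 32328 bases), for CTNNB1 (767595 against 65356 bases) and for CTNND1 (106947 against 66304 bases), so these rows carry the position of a wider region. Exons of CTNND1 share 39.1% of their bases with 1 other protein-coding gene model on the same strand and 12.7% with another. The former is not among the genes that the authors listed. The latter had an FPKM of 0.404 in the KD-labelled column and 0.323 in the CTRL-labelled column. Whether counting used strand is not given in the sources used here. For JUP, PKP3, CTNNB1, EPCAM and TJP1 no other annotated gene shares exonic bases.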

How the data were processed

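RNA was sequenced from 3 pools of K562 cells with αCP1/2 siRNAs and 3 with control siRNAs. Reads were mapped by the authors with TopHat 1.4.1 to hg19 and Ensembl transcripts, and the deposited FPKM values were made with Cuffdiff 2.2.0. The deposited estimated counts need not be whole, and their totals were 13699340 for KD and 11680567 for CTRL. For every single library the paper lists more mapped read pairs than either total. What the counts were summed or averaged over is therefore not known, and the counting intervals take them as numbers of reads. Both units are given once per gene and group, and how libraries were combined is not given in the sources used here. Columns of the authors' own comparison (a log2 fold change, a p-value and an FDR) and repeated group averages were not used.

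Ratios used a pseudocount of 1 and a minimum of 1 for the mean FPKM. Counting intervals were 95% exact Poisson for levels, exact binomial (Clopper-Pearson) for count shares and conditional exact for ratios of 2 genes, from counts rounded to whole numbers. Reads are not independent molecules, so they cover counting error only. The design foresaw no test for 1 value per group. GC content and length came from the longest GENCODE release 44 transcript on GRCh37, found for 96.8% of the genes that passed, and a quadratic trend in both was removed as an alternative. The other alternatives were a pseudocount of 0.1, no filter, a mean FPKM of at least 5, CPM (counts scaled by the column total), centring on the median, and summed rows per symbol. Functions were tested on simulated data.

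The members and lists were chosen with earlier results of these data known. The named genes are the 10 members, PCBP1 and PCBP2, and from each of the 8 role lists the gene highest by mean FPKM, every gene averaging 5 FPKM or more whose log2 ratio reached 1 or -1, and genes at 0 that define a structure. Marker lists were summarised by counts and sums, and exceptions are marked in the text. Genes most like a member in pattern were not sought, since 2 values give 1 ratio. The software was scipy 1.17.1, numpy 2.4.6, pandas 2.3.3 and matplotlib 3.10.9 under Python 3.11.15.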

Additional observations from a re-analysis of the deposited data

How the results depend on the processing

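The alternatives gave 241 further values for 40 results. Of the 241, 124 equalled the reported value, 87 differed within their limits, 30 moved past them and 0 turned the sign of a member past 1. The limit was the counting interval for a single member, 1.5 times for a count, and the order-statistic interval or range of the listed genes for a median. Where no construction is named, the cause was not tested.

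Over all genes, 450 were lower for KD by 1 or more, a number that was 791 with a pseudocount of 0.1 and 237 with a mean FPKM of at least 5, where fewer genes were counted. By CPM 641 genes were higher and 803 lower, against 1169 and 450, and the median of all genes was -0.18. With the GC and length trend removed 725 were higher and 454 lower. Of the members, 1 and not 2 was higher by 1 or more by CPM, where PKP2 was at 0.97, and 1 with the trend removed, where PKP3 was at 0.21. Of the lists, the number higher by 1 or more became 1 for catenins and linkers with a pseudocount of 0.1 and with the trend removed, 1 for mesenchymal transition factors with a pseudocount of 0.1, 1 for β-catenin turnover with a mean FPKM of at least 5, and 1 for tight junctions with a mean FPKM of at least 5 and with the trend removed. The number lower became 1 for β-catenin turnover by CPM, under which list medians were -0.23 for cadherins, -0.077 for EPCAM partners and -0.42 for epithelial regulators. Ordered by counts, which are not per length, 7 members changed place for KD and 6 for CTRL. Of 36 values for single members, 11 moved, none under a pseudocount of 0.1 or centring.

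No paired analysis was possible because a group has a single value for each gene. Leaving out each replicate and the replicate block were not run for this reason. Depth limits CDH1, with 3 and 9 counts, and EPCAM, with 70 and 59.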
